A study of Mus musculus with 6 samples.

Results

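Expression of 10 genes that are characteristic of fast skeletal muscle fibres was examined in mammary tumors of mice that lack or carry JAM-A, a tight junction adhesion molecule encoded by F11r. The genes were Acta1, Myh1, Myh2, Myh4, Ckm, Mylpf, Tnnt3, Tnni2, Actn3 and Atp2a1. They were taken for their known place in the muscle fibre, but with earlier results of these data known. Each was read from a probe set paired with exactly 1 gene symbol. Where a gene had several, the probe set with the highest mean over the arrays was used. All 10 were measured, among 19938 genes with such a probe set. The 3 JAM-A-/- tumors (5333, 5346 and 5347) came from JAM-A null mice and the 3 JAM-A+/+ tumors (5369, 5370 and 5393) from mice with intact JAM-A. Both groups carried MMTV-PyMT, a transgene in which the mouse mammary tumor virus promoter drives the middle T oncogene of polyoma virus, mainly in mammary epithelium. The tumors were resected at an early stage, and no age is given for them. Each tumor was measured once, on a one-colour Affymetrix array (Mouse Gene 1.0 ST) whose short probes along a transcript are summarised into 1 value on the log2 scale. The arrays held bulk tumor RNA, so fewer cells of a type and less RNA per cell cannot be told apart.

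The label of genotype was checked on F11r itself, which lay between 5.55 and 6.53 in JAM-A-/- tumors and between 10.1 and 10.47 in JAM-A+/+ tumors (log2 fold change -4.27, standard error 0.24, adjusted p = 0.00667 from limma). No other probe set of the 35557 passed the Benjamini-Hochberg adjustment, so 0.00281% of them did. The label of mammary tumor was checked on 11 markers of mammary epithelium, among them the epithelial adhesion molecule Epcam, at 11.62 to 12.07 over the 6 tumors, and the keratin Krt8, at 12.17 to 12.89. The array medians lay between 6.23 and 6.34 and any pair of arrays correlated across probe sets at 0.979 to 0.991. The labels do not say whether the tumors of a genotype came from separate mice. The p-values therefore measure only the spread between these tumors, which may be technical, and the number of arrays limits their precision.

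A skeletal muscle fibre contracts when thin filaments of actin slide along thick filaments of myosin. Nerve impulses release calcium from the sarcoplasmic reticulum, calcium binds the troponin complex on the thin filament, and a calcium pump then returns it to the store. Fast fibres hold their own isoforms of myosin, troponin and the pump and draw on creatine phosphate and glycogen. The mammary gland itself has no skeletal muscle fibres, but the fat pads in which it lies adjoin the thin muscle sheet of the skin and the muscles of the body wall.

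The start regions of these genes are shown because the members were followed as a set of muscle fibre genes, and because 3 of them are neighbouring myosins. RefSeq windows of 250 bases before to 50 bases after the start of the gene (build GRCm38.p6) were matched for 7 of the 10 members and were not used here for Tnnt3, Tnni2 and Actn3. In the windows of Acta1 (chr8:123894726-123895025, minus strand) and Ckm (chr7:19410844-19411143, plus strand) the capitals mark CAGCTG, an E-box of the form that MyoD and its relatives bind.
Acta1: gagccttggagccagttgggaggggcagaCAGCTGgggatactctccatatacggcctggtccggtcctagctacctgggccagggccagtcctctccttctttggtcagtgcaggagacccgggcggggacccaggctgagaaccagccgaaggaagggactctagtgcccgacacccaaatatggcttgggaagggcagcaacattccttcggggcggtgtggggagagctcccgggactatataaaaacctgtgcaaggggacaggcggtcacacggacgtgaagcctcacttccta
Ckm: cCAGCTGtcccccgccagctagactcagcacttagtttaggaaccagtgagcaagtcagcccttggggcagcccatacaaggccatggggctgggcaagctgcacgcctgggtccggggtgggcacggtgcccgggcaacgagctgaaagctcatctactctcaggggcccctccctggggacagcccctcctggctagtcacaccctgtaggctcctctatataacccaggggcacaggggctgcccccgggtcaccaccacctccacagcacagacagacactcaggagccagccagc
CAGCTG reads the same on both strands. It was found in the windows of 5 of the 7 members (Acta1, Myh4, Ckm, Mylpf and Atp2a1) and in 16.3% of all 32851 windows, and it was chosen after the sequences had been seen. A CArG box, the motif of serum response factor, was found in the windows of Acta1 and Myh4 and in 1.63% of all windows. TATAAA on either strand was found in those of Acta1, Myh1, Myh2 and Myh4 and in 13.6% of all windows, and a MEF2 site in those of Myh1 and Myh4 and in 3.19%. The MEF2 sites of both myosins overlap a match to TATAAA on the other strand. A match describes the letters of a window and is not evidence of binding.

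The 3 fast myosin genes lie next to each other on chromosome 11, in the order Myh2, Myh1 and Myh4. Their windows (chr11:67170777-67171076, chr11:67199852-67200151 and chr11:67237562-67237861, all plus strand) share a run of 20 bases, printed in capitals, that no window of another gene holds (3 of 32851 windows, 0.00913%, searched on both strands). The run was chosen after these sequences had been seen.
Myh2: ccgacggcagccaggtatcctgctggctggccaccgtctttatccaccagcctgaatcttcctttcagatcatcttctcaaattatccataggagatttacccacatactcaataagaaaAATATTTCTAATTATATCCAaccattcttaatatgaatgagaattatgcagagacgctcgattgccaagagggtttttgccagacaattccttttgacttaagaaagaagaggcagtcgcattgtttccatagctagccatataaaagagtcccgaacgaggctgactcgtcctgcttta
Myh1: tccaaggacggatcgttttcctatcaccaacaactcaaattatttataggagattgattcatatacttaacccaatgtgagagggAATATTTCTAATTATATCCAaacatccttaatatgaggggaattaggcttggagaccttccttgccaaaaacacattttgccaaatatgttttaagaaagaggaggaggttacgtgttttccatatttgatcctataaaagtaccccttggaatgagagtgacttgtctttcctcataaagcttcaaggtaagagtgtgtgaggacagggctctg
Myh4: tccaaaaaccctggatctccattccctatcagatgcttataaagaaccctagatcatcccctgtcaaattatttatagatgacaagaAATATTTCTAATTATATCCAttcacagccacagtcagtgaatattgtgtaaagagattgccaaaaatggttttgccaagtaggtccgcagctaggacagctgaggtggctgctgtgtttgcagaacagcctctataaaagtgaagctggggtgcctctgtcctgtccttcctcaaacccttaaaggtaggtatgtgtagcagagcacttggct

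All 10 members had their highest value in JAM-A-/- tumor 5346 and their lowest in JAM-A+/+ tumor 5393. Of all genes, 16.2% were highest in tumor 5346, 9.11% lowest in tumor 5393 and 2.27% both. The members rank together within each genotype as well. In JAM-A-/- tumors, 8 of the 10 had the order 5346, 5347, 5333 from high to low (15.6% of all genes), the exceptions being Myh1 and Myh2, in which tumor 5346 was still the highest of the 3 (23.3% of all genes). In JAM-A+/+ tumors, all 10 had the order 5370, 5369, 5393 (8.86% of all genes). JAM-A-/- tumor 5333 lay below JAM-A+/+ tumor 5370 in 8 of the 10 members, again all but Myh1 and Myh2, and 47.8% of all genes had that order of these tumors.

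The contractile filaments are taken first. Acta1, the actin of the skeletal muscle thin filament, was 9.26, 10.43 and 9.75 in JAM-A-/- tumors 5333, 5346 and 5347, against 8.52, 9.63 and 7.37 in JAM-A+/+ tumors 5369, 5370 and 5393. JAM-A+/+ tumor 5370 lay above JAM-A-/- tumor 5333, so the genotypes overlapped. Acta1 had a log2 fold change of 1.31 (standard error 0.54, unadjusted p = 0.0436, adjusted p = 0.449 from limma), and tumors 5346 and 5393 differed by 3.06, an 8.34-fold difference. Myh4, the myosin heavy chain of the fastest (IIb) fibres, was 7.48, 8.64 and 8.54 in JAM-A-/- tumors and 6.83, 8.11 and 5.72 in JAM-A+/+ tumors. Tumors 5346 and 5347 were nearly level, tumor 5370 lay above tumor 5333, and tumor 5393 stood well below the others. The log2 fold change of Myh4 was 1.33 (standard error 0.58, unadjusted p = 0.0507, adjusted p = 0.46 from limma). Myh1, the myosin heavy chain of IIx fibres, was 6.16, 7.03 and 5.81 in JAM-A-/- tumors and 5.53, 5.58 and 4.01 in JAM-A+/+ tumors. Here the genotypes did not overlap, although tumor 5347 exceeded tumor 5370 by little, and 4.01 in tumor 5393 stood far below the rest. The log2 fold change was 1.29 (standard error 0.47, unadjusted p = 0.0253, adjusted p = 0.413 from limma). Myh2, the myosin heavy chain of IIa fibres, was 5.87, 6.4 and 5.84 in JAM-A-/- tumors and 5.37, 5.75 and 4.9 in JAM-A+/+ tumors. These did not overlap either, with tumors 5347 and 5370 close to each other at the border. The log2 fold change was 0.70 (standard error 0.24, unadjusted p = 0.0221, adjusted p = 0.405 from limma). Probe sets of such related myosins may share probes, so the values of 1 may hold signal of another. In every tumor but 5346, Myh1 and Myh2 lay below the array medians of 6.23 to 6.34. The files give no detection calls, so it cannot be said whether these low values stood above background.

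**Figure D1:**
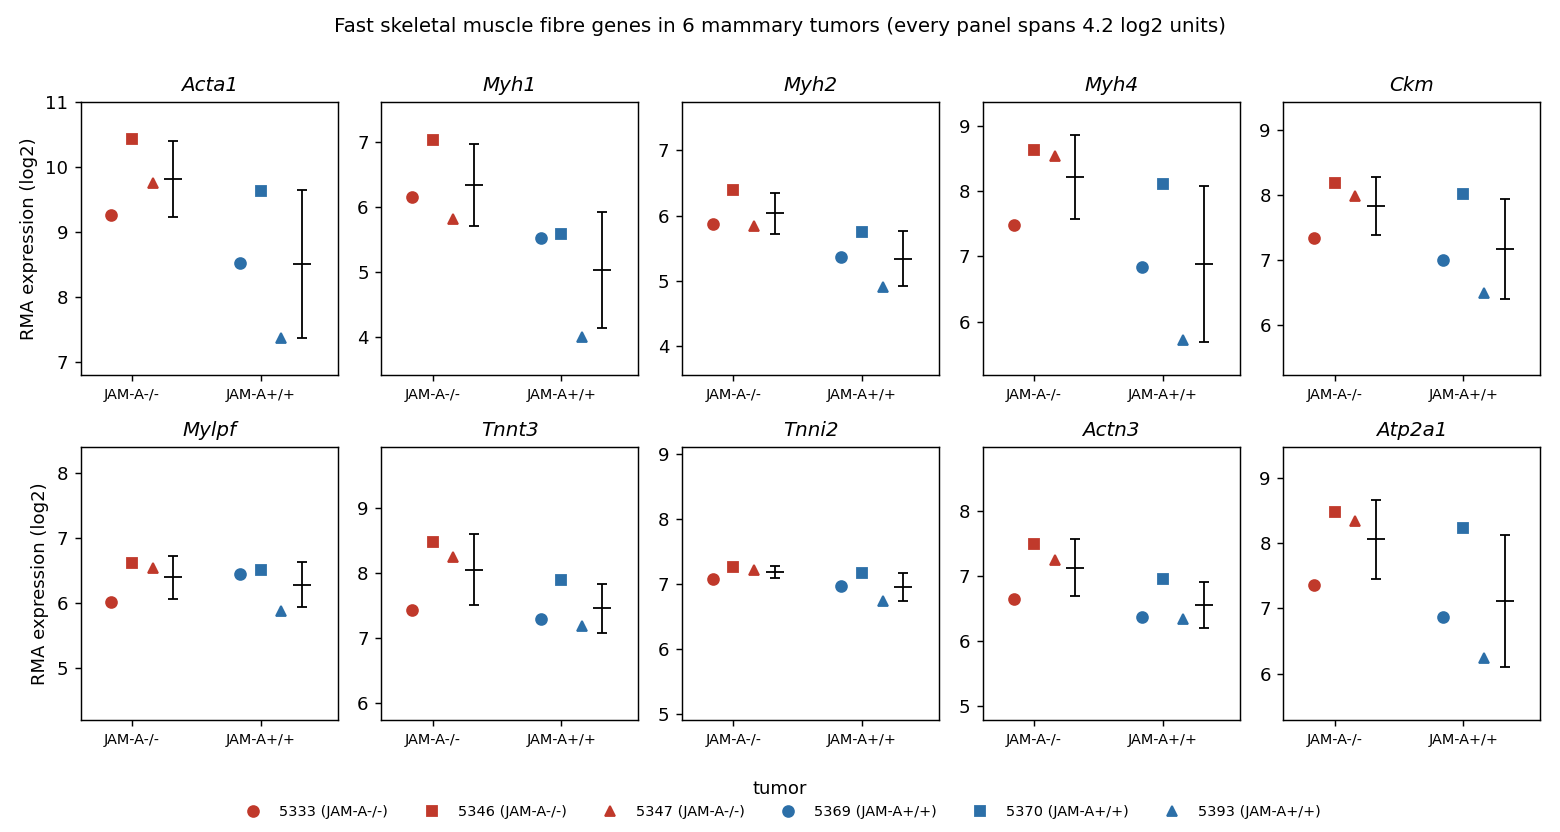
Log2 expression (vertical axis) of each of the 10 members, 1 panel per gene, in 3 JAM-A-/- tumors and 3 JAM-A+/+ tumors (horizontal axis). Each symbol is 1 tumor, and the black ticks and bars are the group mean and 1 SD. Tumor 5346 is the highest and tumor 5393 the lowest in every panel, and the genotypes overlap in all panels but those of Myh1 and Myh2.

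The regulatory and structural proteins of the fast sarcomere had smaller ranges and the same extremes. Tnnt3, the fast troponin T that ties the troponin complex to tropomyosin, was 7.43, 8.47 and 8.24 in JAM-A-/- tumors and 7.29, 7.89 and 7.19 in JAM-A+/+ tumors. Tnni2, the fast troponin I that holds contraction off at low calcium, was 7.08, 7.26 and 7.22 in JAM-A-/- tumors and 6.97, 7.17 and 6.74 in JAM-A+/+ tumors. In both genes tumor 5370 lay between tumor 5333 and tumor 5347. Their log2 fold changes were 0.59 (standard error 0.30, adjusted p = 0.504 from limma) for Tnnt3 and 0.23 (standard error 0.14, adjusted p = 0.574 from limma) for Tnni2. The 2 troponin genes are neighbours on chromosome 7, with only Lsp1 between them. Mylpf, the fast regulatory light chain of myosin, was 6.02, 6.62 and 6.54 in JAM-A-/- tumors and 6.45, 6.51 and 5.88 in JAM-A+/+ tumors. Tumors 5333 and 5393 stood low in it and the other 4 lay close together, and its log2 fold change was 0.11 (standard error 0.22, adjusted p = 0.872 from limma). Actn3, the alpha-actinin that anchors thin filaments in the Z-disc of fast fibres, was 6.65, 7.49 and 7.25 in JAM-A-/- tumors and 6.37, 6.96 and 6.34 in JAM-A+/+ tumors. Only tumor 5333 of the JAM-A-/- group lay within the JAM-A+/+ values, and the log2 fold change was 0.57 (standard error 0.25, unadjusted p = 0.0551, adjusted p = 0.465 from limma).

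The energy enzyme and the calcium pump had the extremes of the other members as well. Ckm, the muscle creatine kinase that rebuilds ATP from creatine phosphate, was 7.34, 8.18 and 7.98 in JAM-A-/- tumors and 7, 8.01 and 6.5 in JAM-A+/+ tumors. JAM-A+/+ tumor 5370 stood above both tumor 5333 and tumor 5347, and the log2 fold change was 0.66 (standard error 0.38, adjusted p = 0.55 from limma). Atp2a1, the calcium pump of the sarcoplasmic reticulum of fast fibres, was 7.36, 8.48 and 8.34 in JAM-A-/- tumors and 6.87, 8.23 and 6.24 in JAM-A+/+ tumors. Tumors 5346, 5347 and 5370 lay close to each other while tumor 5393 was the lowest, and the log2 fold change was 0.95 (standard error 0.51, adjusted p = 0.52 from limma).

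Set against genotype in the limma fit, no member passed the Benjamini-Hochberg adjustment over all probe sets, and 3 had an unadjusted p under 0.05, where 10.9% of probe sets did. A threshold of 1.3-fold together with an unadjusted p below 0.05, called the criteria from here on, was met by 3 members in the higher direction (Acta1, Myh1 and Myh2), where 4.73% of all genes met them (3.95% of all probe sets), and by no member in the lower direction (0.592% of genes and 4.35% of probe sets). The count of members changed when 1 tumor was left out. It was 0 without tumor 5346 or without tumor 5393, 7 without tumor 5333 and 8 without tumor 5370. Tumors 5346 and 5393 held the members' extremes, so leaving either out fixed a smaller genotype difference in advance. Tumor 5370 was the highest JAM-A+/+ tumor in all 10 members and tumor 5333 the lowest JAM-A-/- tumor in 8. Leaving either of them out fixed a larger difference in those members. The share of all genes that met the criteria without a tumor is not given here, nor beside the list counts below. These counts therefore cannot be set against a share of their own setting. Values did not overlap between genotypes for Myh1 and Myh2 alone, against 15% of all genes. The log2 fold change was above 0 for all 10 members, as it was for 71.8% of all genes, and its median was 0.68 over the members and 0.09 over all genes. That of Mylpf was -0.09 without tumor 5393 and 0 without tumor 5346.

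These counts moved with the scaling of the arrays. The criteria were met by 944 genes higher and 118 lower in the deposited values (88.9% of calls higher), by 570 and 174 with quantile normalization of all probe sets (76.6%) and by 359 and 303 when quantiles were equalised among the annotated probe sets only (54.2%). With centring on array medians they were met by 1620 genes higher and 66 lower (96.1%), which is 8.13% of genes higher. Under both quantile normalizations Acta1 no longer met them and Myh1 and Myh2 did, and under that of all probe sets Actn3 met them too. With centring 5 members met them, Acta1, Myh1, Myh2, Myh4 and Actn3. In each of these scalings all 10 members stayed above 0.

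The size of the difference between tumors was large for most members. The range over the 6 tumors had a median of 1.59 over the members and 0.47 over all genes, and it was at least 1 for 8 of the 10 members, against 6.14% of all genes. The exceptions were Mylpf at 0.74 and Tnni2 at 0.52. Acta1, Myh1 and Myh4 had the widest ranges, at 3.06, 3.02 and 2.92, and Atp2a1 followed at 2.24.

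To put the members on 1 scale, each value was expressed as its deviation from that gene's mean over the 6 tumors. The mean deviation over the 10 members was -0.05, 0.78 and 0.43 in JAM-A-/- tumors 5333, 5346 and 5347 and -0.40, 0.27 and -1.03 in JAM-A+/+ tumors 5369, 5370 and 5393. In order from high to low the tumors were 5346, 5347, 5370, 5333, 5369 and 5393, so that JAM-A+/+ tumor 5370 stood above JAM-A-/- tumor 5333. The genotype means were 0.39 ± 0.42 in JAM-A-/- and -0.39 ± 0.65 in JAM-A+/+ tumors (SD, n = 3 each), a difference of 0.77. Tumors of 1 genotype spanned 0.84 in JAM-A-/- and 1.3 in JAM-A+/+, both more than the difference between the means. A span from lowest to highest is another measure than a difference of means, and that difference was larger than either SD. With 1 array per tumor, neighbouring tumors in this order cannot be compared beyond a spread of their own.

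**Figure D2:**
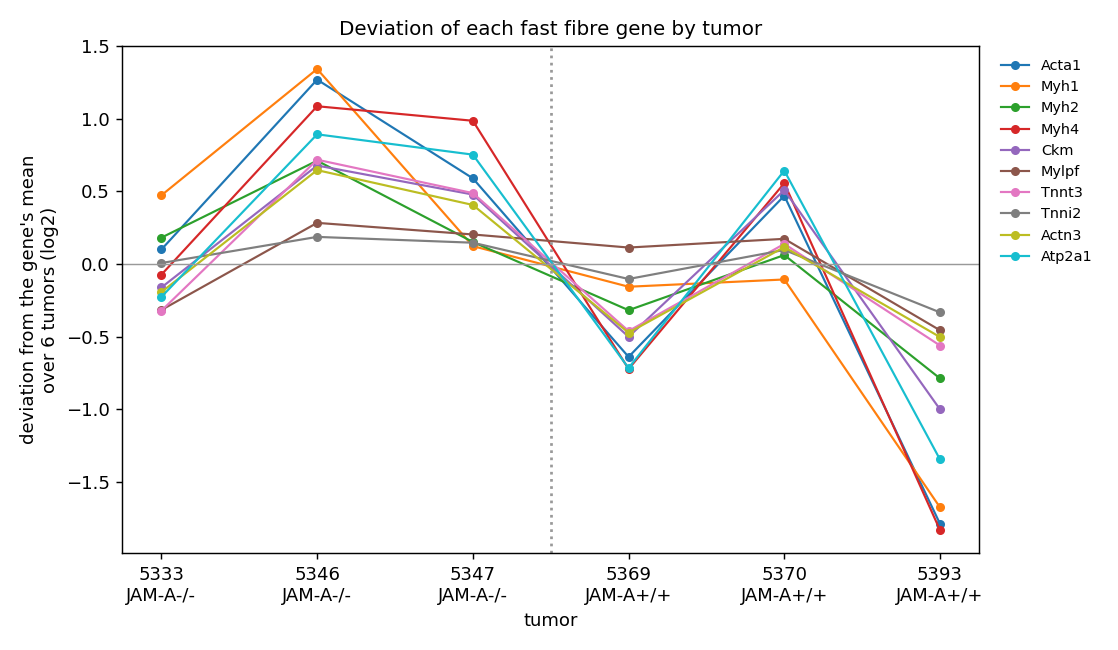
Deviation of each of the 10 members from its mean over the 6 tumors (vertical axis, log2) by tumor (horizontal axis), with JAM-A-/- tumors on the left and JAM-A+/+ tumors on the right. Each line joins the 6 values of 1 gene. The mean over the 10 genes is highest in tumor 5346 (0.78) and lowest in tumor 5393 (-1.03), with tumor 5370 (0.27) above tumor 5333 (-0.05).

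The variation of the members was divided into a part between the genotype means and a part among tumors of 1 genotype. Pooled over the 10 members, 41.5% of the sum of squares lay between the genotypes and the rest among tumors of the same genotype, while over all genes 29.6% lay between them. By gene it ran from 4.07% in Mylpf to 56.5% in Myh2, and its median was 41.5% over the members and 19.6% over all genes. The pooled share was 28.6% without tumor 5346, 70.0% without tumor 5370 and 16.3% without both tumor 5346 and tumor 5393. The last of these settings was added once the values were known. It leaves out the highest JAM-A-/- and the lowest JAM-A+/+ tumor, so a smaller difference between genotype means was fixed in advance. Leaving out tumor 5346 alone likewise fixed a smaller difference, and leaving out tumor 5370, the highest JAM-A+/+ tumor, fixed a larger difference. The shares with tumors left out therefore cannot show whether the members vary by tumor or by genotype.

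The members also followed each other closely over the tumors. Over the 45 pairs of members, Pearson's r across the 6 tumors had a median of 0.905 (0.648 to 0.998). When each value was taken from its own genotype mean, so that no difference between genotypes remained, the median was 0.862 (0.502 to 0.998). Acta1 followed the mean of the other 9 most closely, at 0.993, while Myh1 stood at 0.847 and Mylpf at 0.784. These are descriptions of 6 tumors, and all genes of a tumor share its array and its RNA.

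The fast myosins did not keep a fixed ratio. The deviation of Myh4 minus that of Myh1 was -0.55, -0.26 and 0.86 in JAM-A-/- tumors 5333, 5346 and 5347 and -0.57, 0.66 and -0.16 in JAM-A+/+ tumors 5369, 5370 and 5393, so Myh4 led in 1 tumor of each genotype and the genotype means were 0.02 and -0.02. The pair was chosen after its values had been seen. For Myh4 minus Myh2 the genotype means were 0.32 in JAM-A-/- and -0.32 in JAM-A+/+ tumors. For Myh2 minus Myh1 they were -0.30 in JAM-A-/- and 0.30 in JAM-A+/+ tumors. In each of these pairs both genotypes had tumors above and below 0. Tumor 5347 exceeded tumor 5333 by 1.06 in Myh4, 0.98 in Atp2a1 and 0.81 in Tnnt3, but lay below it by 0.35 in Myh1 and by 0.03 in Myh2. The members and the list of other sarcomere genes below held 19 genes with a range of at least 1. Of these, 13 were higher in tumor 5347 than in tumor 5333 and 6 were not, namely Myh1, Xirp2, Mybpc1, Myom2, Klhl41 and Myh2. Myh3, the embryonic myosin, and Myh8, the perinatal one, flank the fast myosins on the chromosome, and they varied little, at 4.49 to 4.74 and 5.4 to 5.63 over the 6 tumors. Myh7, the slow myosin, lies on chromosome 14 and was 5.79 to 6.06.

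**Figure D3:**
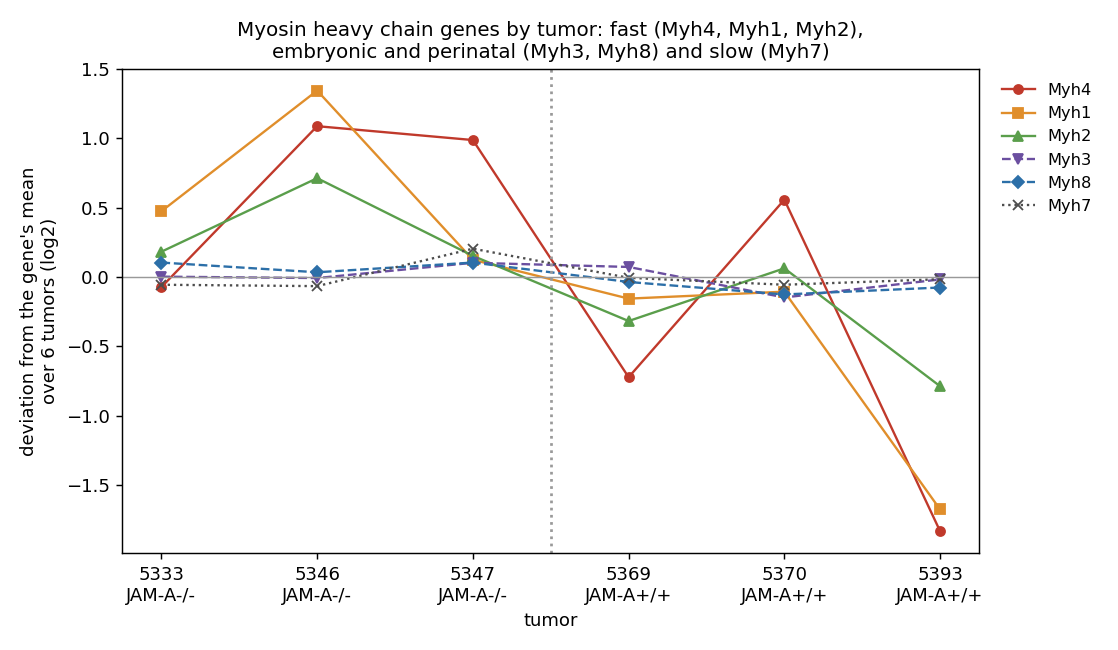
Deviation of myosin heavy chain genes of log2 values from the gene's own mean (vertical axis) by tumor (horizontal axis), JAM-A-/- tumors left and JAM-A+/+ tumors right. The adult fast myosins Myh1, Myh2 and Myh4 span 1.5 to 3.02 over the tumors, while the embryonic Myh3, the perinatal Myh8 and the slow Myh7 span 0.23 to 0.27.

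Other genes of the sarcomere were followed in a list of 27 measured genes. Of these, 15 were both highest in tumor 5346 and lowest in tumor 5393. Myl1, the fast essential light chain, was 6.93, 7.74 and 7.48 in JAM-A-/- tumors and 6.62, 7.26 and 5.98 in JAM-A+/+ tumors, and Ttn, the giant spring protein titin, was 6.32, 7.05 and 6.45 in JAM-A-/- tumors and 5.89, 6.57 and 5.43 in JAM-A+/+ tumors. Myl1 had the tumor order of Acta1, in Ttn tumors 5347 and 5370 changed places, and both genes overlapped between genotypes. Over the list the median log2 fold change was 0.30. The criteria were met higher by 2 of the 27, Actn2, an alpha-actinin of the Z-disc (log2 fold change 0.59, adjusted p = 0.366 from limma), and Myom2, a protein of the M-band (0.53, adjusted p = 0.397 from limma), and lower by none. This count too changed when single tumors were left out. It was 1 without tumor 5346 or tumor 5393, 6 without tumor 5333, 4 without tumor 5347 and 10 without tumor 5370. With centring on array medians it was 6, and with quantile normalization of all probe sets 4.

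Genes of excitation and of energy supply varied less but shared the extremes in part. Of 21 genes of calcium release and the motor endplate, 20 were measured (Scn4a was not among the genes measured here), none met the criteria in either direction, the median log2 fold change was 0.14, and 3 were both highest in tumor 5346 and lowest in tumor 5393. The widest of these was Pvalb, the calcium buffer of fast fibres, at 5.85, 7.02 and 6.77 in JAM-A-/- tumors and 6.1, 7 and 5.43 in JAM-A+/+ tumors. The others were Casq1, the calcium store protein of fast fibres, and Ryr1, the release channel. Of 15 genes of muscle energy metabolism, all measured, 2 met the criteria higher and none lower, with a median of 0.16, and 4 had both extremes. They include Pygm, the muscle glycogen phosphorylase, at 6.76, 7.51 and 7.3 in JAM-A-/- tumors and 6.35, 7.1 and 6.26 in JAM-A+/+ tumors. The 2 that met the criteria were the glycolytic enzymes Eno3 (log2 fold change 0.61, adjusted p = 0.435 from limma) and Pgam2 (0.60, adjusted p = 0.456 from limma), and both also had both extremes. No gene of the list met the criteria without tumor 5346, 5347, 5369 or 5393, while 4 did without tumor 5333, 4 with centring and 3 without tumor 5370.

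Genes of slow fibres, of muscle precursors and of the heart had narrower ranges. None of the 10 slow fibre genes met the criteria, their median log2 fold change was 0.06 and no range exceeded 0.62, reached by Myoz2 and Casq2. Casq2, a calcium store protein, was 5.02, 5.3 and 5.13 in JAM-A-/- tumors and 5.01, 5.13 and 4.68 in JAM-A+/+ tumors, with the extremes of the members and r = 0.970 with their mean profile. Myoz2, a Z-disc protein of slow fibres, was 4.25, 4.17 and 4.08 in JAM-A-/- tumors and 3.63, 3.76 and 4.01 in JAM-A+/+ tumors, without overlap and in another order (log2 fold change 0.37, adjusted p = 0.418 from limma). None of 14 genes of precursors and embryonic muscle met them (median 0.07), with the widest range 0.72 in Mstn, which encodes the growth inhibitor myostatin. None of 8 cardiac genes met them (median 0.04), with no range over 0.54. The files give no detection calls, so it cannot be said which of these low values stood above background.

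**Figure D4:**
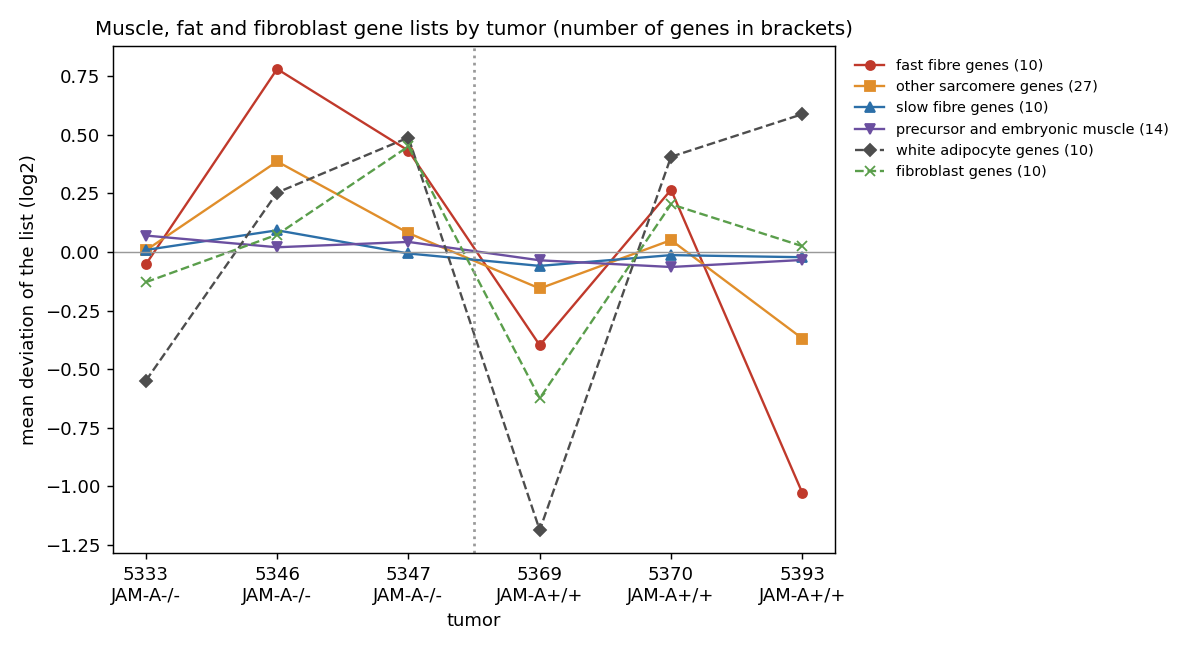
Mean deviation of log2 values from the gene's own mean (vertical axis) by tumor (horizontal axis), JAM-A-/- tumors left and JAM-A+/+ tumors right, averaged over the 10 members and over lists of other sarcomere, slow fibre, precursor and embryonic muscle, white adipocyte and fibroblast genes. Each line is 1 list. The members run from -1.03 in tumor 5393 to 0.78 in tumor 5346, the slow fibre genes from -0.06 to 0.09, and the white adipocyte genes are lowest in tumor 5369 (-1.19) and highest in tumor 5393 (0.59).

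Markers of other cells of the gland and its surroundings were set beside the members, and their part in the members' values was not tested. White adipocyte genes (10 of 12 measured) had mean deviations of -0.55, 0.25 and 0.49 in JAM-A-/- tumors and of -1.19, 0.41 and 0.59 in JAM-A+/+ tumors. Tumor 5393, the lowest for every muscle member, was thus the highest for this list. Their leading gene by range, the carbonic anhydrase Car3, was 8.59, 10.09 and 10.52 in JAM-A-/- tumors and 7.13, 10.27 and 10.61 in JAM-A+/+ tumors, and none met the criteria (median log2 fold change 0.17, but -0.46 without tumor 5369 and -0.01 without tumor 5347). Of brown adipocyte genes (5 of 6 measured), Elovl3, a fatty acid elongase, met them lower (-0.61, adjusted p = 0.258 from limma), with a list median of -0.16 that was 0.03 without tumor 5393 and -0.68 without tumor 5369. Ucp1 had the widest range of this list. It was 5.06, 4.95 and 5.5 in JAM-A-/- tumors and 4.99, 7.12 and 6.62 in JAM-A+/+ tumors, so the genotypes overlapped.

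Of 13 smooth muscle and myoepithelial genes, 5 met the criteria higher and none lower, with a median of 0.17. These were Acta2, Des, Cnn1, Tagln and Smtn, and the count was 2 without tumor 5346 and 3 without tumor 5369 or tumor 5393. Des, the intermediate filament desmin, which skeletal muscle also holds, was 6.76, 7.45 and 6.85 in JAM-A-/- tumors and 6.06, 6.58 and 5.85 in JAM-A+/+ tumors, with the same extremes as the members but no overlap between genotypes (log2 fold change 0.86, adjusted p = 0.336 from limma). Acta2, the smooth muscle actin, was 9.61, 9.93 and 9.61 in JAM-A-/- tumors and 8.66, 8.84 and 8.96 in JAM-A+/+ tumors (log2 fold change 0.90, adjusted p = 0.208 from limma). In Acta2, unlike in Acta1, the genotypes did not overlap, and 91.4% of its sum of squares lay between them, against 44.1% for Acta1. Acta2 had the smallest p of its list, and only 5 of the 13 genes did not overlap, so it does not stand for the list.

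Among the remaining lists, fibroblast genes had mean deviations of -0.13, 0.07 and 0.45 in JAM-A-/- tumors and of -0.62, 0.20 and 0.02 in JAM-A+/+ tumors, with 2 of 10 higher by the criteria (Col1a2 and Pdgfra, median 0.26). The endothelial genes had 1 of 10 higher (Pecam1, median 0.33), the Schwann cell genes 1 of the 5 measured of 8 (S100b, median 0.12) and the mammary epithelial genes none of 11 (median 0.17). The fibroblast count was 0 without tumor 5346, 5347 or 5369 and 4 without tumor 5370. The endothelial count was 0 without tumor 5346, 5347, 5369 or 5393, 5 without tumor 5333 and 4 without tumor 5370. The Schwann cell count was 2 without tumor 5333 and 0 without any other single tumor, and the epithelial count was 3 without tumor 5333. With quantile normalization of all probe sets the epithelial median was -0.01. With all 6 tumors in the deposited values, none of these lists held a gene lower by the criteria or a gene that passed the adjustment.

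Genes with the tumor pattern of the members were searched among the 1225 genes with a range of at least 1. Over the 6 tumors, 16 of them correlated with the mean profile of the members at 0.95 or more (for a member, with the mean of the other 9), of which 4 were members (Acta1, Myh4, Ckm and Atp2a1) and 10 stood in the other muscle lists (Casq1, Eno3, Mybpc2, Myl1, Myot, Neb, Pgam2, Pygm, Tnnc2 and Ttn). The other 2 stood in no list. These were Naip5, an intracellular sensor of bacterial proteins (r = 0.970, log2 fold change 0.59), and Col8a1, a short-chain collagen (r = 0.954, log2 fold change 0.62). Next outside the lists were Sprr2b, Ifi202b, Samt2b, Epha3, Col12a1, Tnc, BC023105 and Renbp, at 0.92 to 0.868. Tnc, the matrix glycoprotein tenascin C, was 8.54, 8.89 and 8.15 in JAM-A-/- tumors and 7.46, 8.24 and 7.18 in JAM-A+/+ tumors, so that tumor 5333, below tumors 5346, 5347 and 5370 in Acta1, stood above tumors 5347 and 5370 in Tnc.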

How the data were processed

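Total RNA of 6 mammary tumors, 3 JAM-A-/- and 3 JAM-A+/+, was hybridized to Affymetrix Mouse Gene 1.0 ST arrays, 1 per tumor. The authors deposited expression on the log2 scale with 2 decimals, computed by RMA, and the submitters' processing notes also name Affymetrix Expression Console 1.1. RMA normalizes the probes between arrays before summarising them, so total RNA cannot be compared, and the summarised arrays still differed in their medians. The sources used here give neither its settings nor the test used for the arrays. Controls were JAM-A+/+ littermates per the methods, with no litter, batch or scan date stated for any array.

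Tumors were grouped by title and genotype. Differences (JAM-A-/- minus JAM-A+/+) were fitted here with limma 3.58.1 in R 4.3.3 (lmFit and eBayes, 3 against 3 tumors, no covariate, two-sided, Benjamini-Hochberg adjustment over 35557 probe sets). The criteria (1.3-fold or more, unadjusted p below 0.05) were read from the supplement's list of signature genes. The platform annotation gives 1 symbol to 21789 probe sets, several to 1621 and does not list 12147, and 21698 were matched to RefSeq gene names. Deviations, ranges, sums of squares and correlations were computed on 1 probe set per gene without further normalization.

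The members, lists, tests and most alternatives were chosen with earlier results of these data known, so no list was tested as a whole. Besides the members, up to 3 genes of each list by range and the 10 genes outside the lists most like the members could be named. Of the genes of a list that met the criteria, only those of smallest p could be named. Mybpc1, Klhl41, Mybpc2, Myot, Neb, Tnnc2, Myh3, Myh7, Myh8, Cnn1, Tagln, Smtn, Epcam and Krt8 fall outside this rule and were named after their values were seen. The fit was also tested on simulated data with known changes. The alternatives were other tests, scalings, filters, probe set rules and leaving out tumors.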

Additional observations from a re-analysis of the deposited data

How the results depend on the processing

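That all 10 members were highest in tumor 5346 and lowest in tumor 5393 held under the scalings, the mean over probe sets of a gene and the omission of single other tumors, and other tests leave the values as they are. The count of members that met the criteria was 3 in the deposited values. It was 5 with centring on array medians, 5 with array weights and 5 without the 40% dimmest probe sets. It was 2 with a trend and robust prior and 2 with quantile normalization over the annotated probe sets. It stayed 3 with quantile normalization of all probe sets and with the mean over probe sets of a gene. The share of all genes higher by the criteria was 8.13% with centring and 4.73% in the deposited values. It was 1.8% with quantile normalization over the annotated probe sets. For array weights, the prior, the filter and left-out tumors this share is not given here. The count of members ran from 0 to 8 when 1 tumor was left out. No member passed the adjustment under any alternative. The share of the members' sum of squares between genotypes, 41.5%, ran from 28.6% to 70.0% when 1 tumor was left out. The low end leaves out tumor 5346 and the high end tumor 5370, which fixed a smaller and a larger genotype difference in advance. The share was 16.3% without both tumor 5346 and tumor 5393, a choice of the members' extremes that fixed a smaller genotype difference in advance. The median log2 fold change of the members ran from 0.471 to 0.992 when 1 tumor was left out. The log2 fold change of Mylpf ran from -0.087 without tumor 5393 to 0.30 without tumor 5333. That of F11r ran from -4.54 to -4.05 when 1 tumor was left out, and its adjusted p was 0.0507 without tumor 5333, 0.0839 without tumor 5369, 0.079 without tumor 5370 and 0.058 without tumor 5393 (limma). Of 130 member log2 fold changes under single alternatives, 102 kept their side of the criteria and did not change sign. Among these, that of Mylpf fell to 0 without tumor 5346. Another 16 newly met the criteria, 11 no longer met them and 1 changed sign. The cause was not tested. No paired analysis was possible because no litter or pairing is stated for the tumors. The depth of an array is not given as a count, no detection calls come with the values, and 3 tumors per genotype limit what can be seen.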
